A study of Mus musculus with 9 samples.

Results

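The genes described here are 9 sensors of foreign or misplaced nucleic acid: the cytosolic RNA helicases Ddx58 (RIG-I), Ifih1 (MDA5) and Dhx58 (LGP2), the Z-nucleic acid receptor Zbp1, the RNA-activated kinase Eif2ak2 (PKR), the interferon-inducible DNA sensor Ifi204, and the endosomal receptors Tlr3, Tlr7 and Tlr9. They were chosen by name, with earlier results of these data known, and all 9 were among the 16795 genes tested. They were covered by 17 probes, of which 16 passed the filter on dim probes, set so that a probe enters when the scanner software marks it as clearly brighter than background on every array of some group. Zbp1, Tlr7, Tlr9 and Eif2ak2 rest on a single probe each.

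A cell recognises an invading virus largely through its nucleic acid. RIG-I and MDA5 bind double-stranded RNA in the cytosol and signal through the mitochondrial adaptor MAVS, while LGP2, which lacks the signalling domains, modulates both. Toll-like receptors sample the contents of endosomes, with TLR3 reading double-stranded RNA, TLR7 single-stranded RNA and TLR9 unmethylated CpG DNA. These routes end in type I interferon, and interferon in turn raises the transcription of many of the sensors themselves. In liver, hepatocytes, resident macrophages (Kupffer cells), endothelial cells and dendritic cells carry different sets of these receptors.

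The livers came from C57BL/6 males at 3 months of age, and a lobe of each was profiled on a single-colour array, 9 in all and 3 in each of 3 groups. The untreated mice received no vector, the AAV-GFP mice received an adeno-associated virus (AAV, a gene delivery vector with a DNA genome) coding for green fluorescent protein, and the AAV-hGRβ mice received AAV coding for hGRβ, the human glucocorticoid receptor in its β isoform. AAV-hGRβ against AAV-GFP compares cargos within the vector, and AAV-GFP against untreated compares the control vector with none. The promoter, serotype, dose and time after injection are not given in the sources used here, and the labels do not say whether the 3 arrays of a group came from separate mice, so p-values measure the spread between these samples, which may be technical.

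Values are log2 intensities set against each array's own 75th percentile, so 0 is that percentile and a difference of 1 is a doubling. A gene with several probes is represented by its probe of highest mean. Adjusted p-values are from limma with Benjamini-Hochberg adjustment over all 16795 genes, with the threshold at 0.05. The arrays were scanned on 2 days, and day 2 held untreated replicate 2, AAV-GFP replicate 3 and AAV-hGRβ replicate 1. On day 1 each group lay on a slide of its own, so differences within day 1 cannot separate group from slide. On day 2 the AAV-GFP and AAV-hGRβ arrays shared a slide, and the untreated array lay on another. The share of gene spots well above background ran from 54.0% to 82.0%, highest on AAV-hGRβ replicate 1. Hepatocyte markers were bright in all groups: the 8 tested, of 9 listed, were together 2877 to 4695 times the array's 75th percentile.

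In AAV-hGRβ livers, Zbp1 and Dhx58 rose against AAV-GFP, 5.66-fold and 3.28-fold. Over all genes, 0.84% were called higher in that comparison, and 2 of the 9 sensors were. On 7 of the 9 sensors every AAV-hGRβ array lay above every AAV-GFP array, against 9.59% of all genes, and the exceptions were Tlr3 and Tlr9. The median log2 difference was 1.38 for the sensors and 0.03 for all genes. Because the sensors were chosen with earlier results known, these shares and medians are descriptive only. In bulk liver RNA a change in the number of cells of a type and a change in RNA per cell cannot be told apart.

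**Figure D1:**
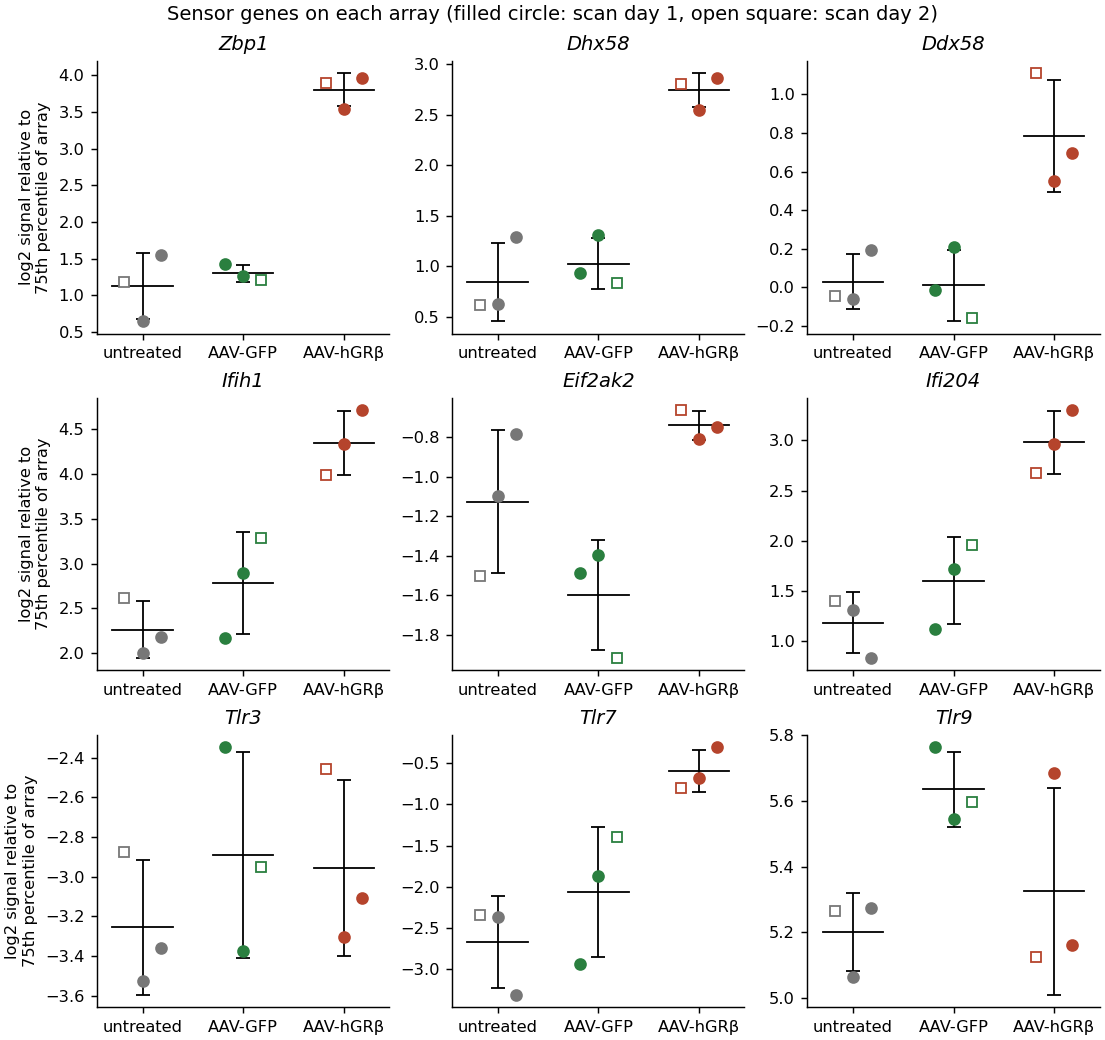
Log2 signal relative to the array's 75th percentile (vertical axis) for each sensor on each array, by group; bars are mean ± SD of 3 arrays, filled circles are scan day 1 and open squares scan day 2, and each panel has its own scale. The AAV-hGRβ arrays lie above all AAV-GFP arrays in 7 panels, and the groups overlap for Tlr3 and Tlr9.

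**Figure D2:**
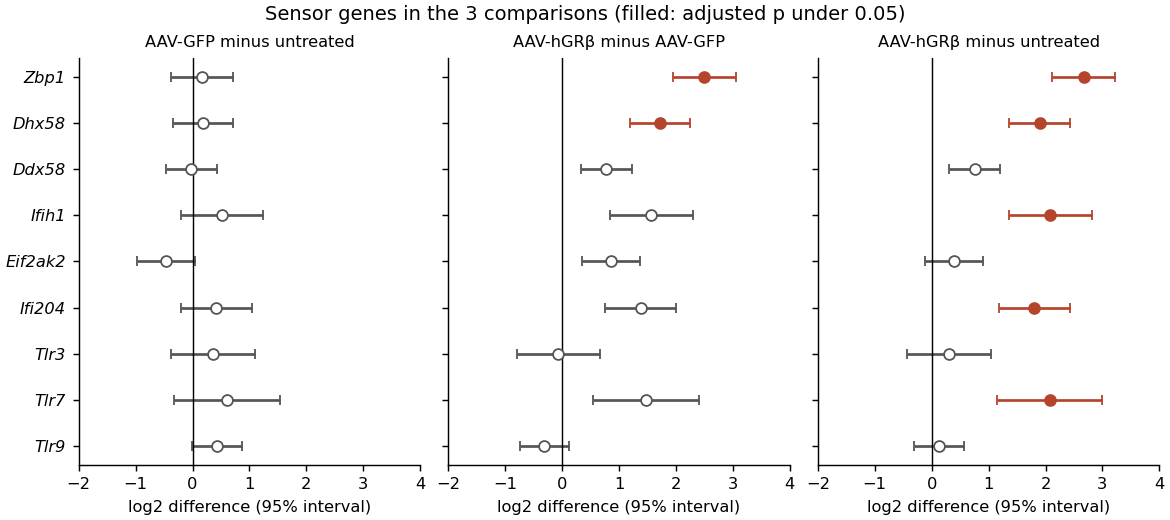
Log2 differences (horizontal axis) of the 9 sensors in 3 comparisons, with 95% intervals; filled points have an adjusted p under 0.05. No sensor is filled for AAV-GFP minus untreated, 2 are for AAV-hGRβ minus AAV-GFP and 5 for AAV-hGRβ minus untreated.

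Among the RIG-I-like helicases, Dhx58 passed the threshold. Its signal was 0.93, 1.31 and 0.84 on the AAV-GFP arrays, 2.80, 2.55 and 2.87 on the AAV-hGRβ arrays, and 0.62, 0.63 and 1.29 on the untreated arrays. All AAV-hGRβ arrays lay above the other 6, and the AAV-GFP and untreated arrays overlapped. The difference between AAV-hGRβ and AAV-GFP was 1.71 (SE 0.23, adjusted p = 0.0150), and it was 1.59 within scan day 1 and 1.97 within day 2. The call did not survive without AAV-GFP replicate 1 (adjusted p = 0.0804), AAV-hGRβ replicate 1 (0.0712) or AAV-hGRβ replicate 3 (0.0902), or with arrays scaled on their median (0.121), background removed with normexp (0.125) or no filter on dim probes (0.0791). The other Dhx58 probe was well above background on 2 AAV-hGRβ arrays alone and did not enter the test, and its AAV-hGRβ mean was at least 1.18-fold that of AAV-GFP.

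Ifih1, the sensor of long double-stranded RNA, stood at 2.16, 2.89 and 3.29 on the AAV-GFP arrays and at 3.99, 4.34 and 4.71 on the AAV-hGRβ arrays. The untreated arrays gave 2.61, 2.00 and 2.18. The AAV-hGRβ arrays did not overlap with either other group, but the AAV-GFP arrays were widely spread, and the difference of 1.57 (SE 0.32) missed the threshold (adjusted p = 0.0700). It was 2.00 within day 1 and 0.70 within day 2. The second Ifih1 probe, dimmer by intensity, gave 1.24 for the same comparison. For AAV-GFP against untreated its probes pointed opposite ways, at 0.52 and -0.33, neither past the threshold.

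Ddx58, the sensor of short RNA with a 5′ triphosphate, had 4 probes past the filter. Its brightest probe read -0.01, 0.21 and -0.16 on the AAV-GFP arrays, -0.05, -0.06 and 0.19 on the untreated arrays, and 1.11, 0.55 and 0.69 on the AAV-hGRβ arrays. The AAV-hGRβ arrays stood clear of both other groups, which overlapped. The difference from AAV-GFP was 0.77 (SE 0.20, adjusted p = 0.147), with 0.53 within day 1, 1.27 within day 2 and 0.41 with arrays scaled on their median. All 4 probes gave differences of the same sign, from 0.66 to 0.98, and on 3 of them the groups did not overlap. Of these 3, the dimmest was well above background on only 1 AAV-GFP and 1 untreated array. That probe passed the filter only through the AAV-hGRβ arrays, so it adds no separate support.

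Probe sequences are printed for the Ddx58 values above and for dimmer probes of Ifih1 and Ifi204. The per-array values given for Ifih1 and Ifi204 were read from their brightest probes, which are not printed. The sequences are the 60-base probes as the array files give them, 5′ to 3′, with positions on build mm7, minus strand. The Ddx58 probe lies at chr4:40348348-40348407 and is the brightest of that gene. The second Ifih1 probe spans chr2:62537605-62539752, which is 2148 bases for a 60-base probe. The Ifi204 probe at chr1:173727972-173728031 is listed in the files under accessions of Ifi204, Ifi205 and Ifi211, close paralogs of the Ifi200 family, whereas the neighbouring probe at chr1:173721378-173721437 is listed under Ifi204 alone.
Ddx58 probe: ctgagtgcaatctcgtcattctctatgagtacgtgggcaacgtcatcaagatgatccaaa
Ifih1 second probe: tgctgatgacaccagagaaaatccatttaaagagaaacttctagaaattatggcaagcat
Ifi204 probe under 1 gene: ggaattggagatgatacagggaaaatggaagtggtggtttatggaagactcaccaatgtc
Ifi204 probe under 3 genes: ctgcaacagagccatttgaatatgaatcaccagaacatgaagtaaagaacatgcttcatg

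Zbp1, which binds left-handed Z-form nucleic acid and can start necroptosis through RIPK3 and MLKL, had the largest difference of the 9 sensors. It read 1.43, 1.26 and 1.20 on the AAV-GFP arrays, 3.90, 3.54 and 3.96 on the AAV-hGRβ arrays, and 1.19, 0.65 and 1.55 on the untreated arrays. The gap between the AAV-hGRβ arrays and the other 6 exceeded the range within any group. AAV-hGRβ exceeded AAV-GFP by 2.50 (SE 0.24, adjusted p = 0.00458), with 2.40 within day 1 and 2.69 within day 2. By size of the difference it was number 54 of the 16795 genes. Its adjusted p moved to 0.0503 when background was removed with normexp.

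Eif2ak2, the kinase that halts translation by phosphorylating eIF2α when it binds double-stranded RNA, read -1.48, -1.40 and -1.92 on the AAV-GFP arrays and -0.66, -0.81 and -0.75 on the AAV-hGRβ arrays. The untreated arrays, at -1.50, -1.10 and -0.78, spanned the gap between them. All AAV-hGRβ arrays lay above the AAV-GFP arrays, with a difference of 0.86 (SE 0.22, adjusted p = 0.156) that was 0.66 within day 1 and 1.25 within day 2. It was 0.07 with normexp and 0.50 with arrays scaled on their median. Against untreated the difference was 0.39 (adjusted p = 0.290) and the arrays overlapped.

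Ifi204, a mouse relative of human IFI16 that binds DNA, read 1.12, 1.72 and 1.96 on the AAV-GFP arrays, 2.67, 2.97 and 3.30 on the AAV-hGRβ arrays, and 1.40, 1.31 and 0.83 on the untreated arrays. The AAV-hGRβ arrays were the 3 highest of the 9. The difference from AAV-GFP was 1.38 (SE 0.27, adjusted p = 0.0651), and was 1.71 within day 1 but 0.71 within day 2. Its 3 probes gave 0.94 to 1.52, and the lowest came from the probe shared with Ifi205 and Ifi211, on which the groups overlapped. How the paralogs share this signal was not tested.

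The endosomal receptors differed among themselves. Tlr7 read -2.93, -1.87 and -1.40 on the AAV-GFP arrays, -0.80, -0.68 and -0.31 on the AAV-hGRβ arrays, and -2.34, -2.36 and -3.30 on the untreated arrays. The AAV-hGRβ arrays did not overlap with either group, but the AAV-GFP arrays spread over more than a doubling, and the difference of 1.47 (SE 0.41) did not pass (adjusted p = 0.182). It was 1.91 within day 1, 0.60 within day 2 and 0.62 with normexp. Ifih1, Ifi204 and Tlr7 shared this layout: among the AAV-GFP arrays replicate 1 was the lowest and replicate 3 the highest for each, and each had its smaller difference on scan day 2, which held 1 array per group.

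Tlr3 was dim, at -2.35, -3.38 and -2.95 on the AAV-GFP arrays, -2.46, -3.31 and -3.11 on the AAV-hGRβ arrays, and -2.88, -3.53 and -3.36 on the untreated arrays. On this probe, the brighter of its probes, the groups overlapped throughout. The AAV-hGRβ minus AAV-GFP difference was -0.06, with a 95% interval from -0.80 to 0.67 that leaves room for changes of either sign. The other Tlr3 probe gave 0.48 with arrays that did not overlap. For AAV-hGRβ minus untreated that probe gave 0.80, also without overlap (adjusted p = 0.103 over all probes, by limma).

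Tlr9 read 5.77, 5.54 and 5.60 on the AAV-GFP arrays, 5.13, 5.69 and 5.16 on the AAV-hGRβ arrays, and 5.26, 5.06 and 5.27 on the untreated arrays. Of the 3 AAV-hGRβ arrays, replicate 2 lay within the AAV-GFP range and the others within the untreated range. The AAV-hGRβ minus AAV-GFP difference was -0.31 (95% interval -0.75 to 0.12, adjusted p = 0.607). Its single probe was bright on every array, with an intensity between 16192.5 and 28380.3, and shared no run of 15 bases with any other probe on the array. The cells best known for Tlr9 are plasmacytoid dendritic cells and B cells. Of the 5 plasmacytoid dendritic cell markers tested, Klk1 and Cox6a2 were well above background on all 9 arrays and Siglech on 0 of the untreated and AAV-GFP arrays. The summed signal of the 5 was 0.51 to 8.59 times the 75th percentile over all arrays. Its highest value rests on Cox6a2 on AAV-GFP replicate 1. The summed signal of 4 B cell markers was 0.87 to 2.57 times the 75th percentile over all arrays. Which transcript sets the brightness of the Tlr9 probe was not tested.

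**Figure D3:**
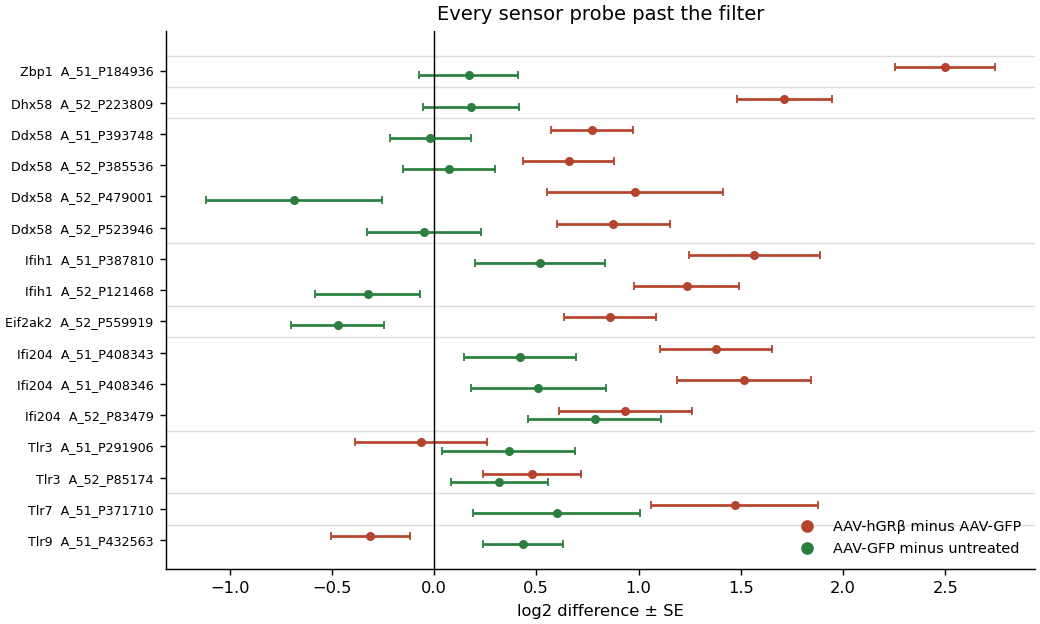
Log2 differences ± SE (horizontal axis) for each of the 16 sensor probes past the filter, in AAV-hGRβ minus AAV-GFP and in AAV-GFP minus untreated. In the first comparison 14 probes lie above 0, and the exceptions are the brighter Tlr3 probe and the Tlr9 probe. Of the 14, the dimmest Ddx58 probe passed the filter only through the AAV-hGRβ arrays.

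The control vector alone moved no sensor past the threshold. Of the 9 sensors, 0 were called for AAV-GFP against untreated, and of all genes 0% were called higher; at an unadjusted p under 0.05 there were 0 sensors and 1660 genes. Of the probes that stand for the 9 sensors, Tlr9's alone had groups that did not overlap, with AAV-GFP higher, against 5.75% of all genes. Its difference was 0.43, with a 95% interval from -0.0012 to 0.87 (adjusted p = 0.484 from limma). The highest point estimates were those of Tlr7, at 0.60 (95% interval -0.33 to 1.53), and Ifih1, at 0.52 (-0.21 to 1.24). For Zbp1 the difference was 0.17 (-0.38 to 0.72) and for Ddx58 -0.02 (-0.47 to 0.43). Eif2ak2 was lower by point estimate, at -0.47 (-0.98 to 0.04). For Dhx58 it was 0.18 (-0.35 to 0.71), for Ifi204 0.42 (-0.20 to 1.04) and for Tlr3 0.36 (-0.37 to 1.101). The Ifi204 probe shared with Ifi205 and Ifi211 gave 0.79 with AAV-GFP arrays all above the untreated ones (adjusted p = 0.513 over all probes, by limma). Every interval given for the 9 sensors includes 0, and changes within them could not be detected with 3 arrays per group.

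AAV-hGRβ against untreated uses the same arrays as the comparisons above, so it adds no separate evidence. In it 5 of the 9 sensors rose, against 2.58% of all genes, and 6 had arrays that did not overlap, against 14.8%. Zbp1 rose by 2.67 (adjusted p = 0.00161) and Dhx58 by 1.89 (adjusted p = 0.00628). Ifih1 rose by 2.08 (adjusted p = 0.0146), Ifi204 by 1.80 (adjusted p = 0.0143) and Tlr7 by 2.07 (adjusted p = 0.0368). The second Ifih1 probe gave only 0.91 and did not pass (adjusted p = 0.0887 over all probes, by limma). The 3 Ifi204 probes gave 1.72 to 2.03. On the probes that stand for Ifih1, Ifi204 and Tlr7, the point estimate of AAV-GFP lay between the other groups, at 0.52, 0.42 and 0.60 above untreated. Their calls were lost with slide as a random block (adjusted p = 0.135 for Ifih1, 0.141 for Ifi204 and 0.261 for Tlr7) and without untreated replicate 3, untreated replicate 4 or AAV-hGRβ replicate 3, each of which left 2 sensors called. Tlr7 was 0.90 above untreated with normexp (adjusted p = 0.616). Ddx58, at 0.75, did not pass (adjusted p = 0.0712).

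Of the 9 sensors, 5 have a promoter in the RefSeq table for GRCm38.p6 (Ddx58, Ifih1, Tlr3, Tlr9 and Eif2ak2), which gives 250 bases before and 50 after the gene's start. The interferon-stimulated response element, searched on both strands as GAAA, any 2 bases and GAAA again, was found in 3 of them, and in 3.44% of the 32851 promoters in the table. In Ifih1 it lies 33 to 42 bases after the start, in Ddx58 3 to 12 bases after the start and on the opposite strand, and in Eif2ak2 19 to 28 bases after the start. The windows of 30 bases are printed on the gene's strand, with the match in capitals. All 3 genes lie on the minus strand, at chr2:62646206-62646235 for Ifih1, chr4:40239804-40239833 for Ddx58 and chr17:78882535-78882564 for Eif2ak2. In Tlr3 and Tlr9 these letters do not occur in this window.
Ifih1 response element: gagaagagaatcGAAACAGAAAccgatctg
Ddx58 response element: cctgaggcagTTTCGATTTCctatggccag
Eif2ak2 response element: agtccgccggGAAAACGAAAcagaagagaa

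Around the sensors, 5 lists of pathway genes were read in the same fit. Of 9 other sensors tested, 0 were called for AAV-hGRβ against AAV-GFP by limma, although their median difference was 0.74. Ifi205, another Ifi200 protein, stood 1.61 higher (adjusted p = 0.0523). Adar, which edits double-stranded RNA and keeps it from MDA5, stood 0.88 higher (adjusted p = 0.0709), and Ifi203 0.85 higher (adjusted p = 0.156). Against untreated, 3 of them rose, namely Ifi205, Zc3hav1 (the CpG RNA-binding protein ZAP) and Cgas (the cytosolic DNA sensor), named after their values were seen.

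Of 19 adaptors, kinases and transcription factors, 2 rose in AAV-hGRβ against AAV-GFP and 0 fell, with a median of 0.15. Irf7, which drives type I interferon transcription downstream of these receptors, rose by 2.65 (SE 0.23, adjusted p = 0.00347). Mlkl, the executioner of necroptosis that acts after Zbp1 and Ripk3, rose by 1.46 (SE 0.18, adjusted p = 0.0100). Ripk3 itself stood 0.90 higher (adjusted p = 0.194), Rnf135, a ubiquitin ligase of RIG-I, 0.49 higher (adjusted p = 0.243), and Unc93b1, which escorts the endosomal receptors, 0.40 higher (adjusted p = 0.429).

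Of 13 nucleases and restraints of the pathway, 1 rose and 0 fell, and this was Usp18, with a difference of 2.16 (SE 0.24, adjusted p = 0.00680). It removes ISG15 and dampens the interferon receptor. Samhd1, which depletes nucleotides, stood 0.80 higher (adjusted p = 0.130), Dnase1l3 stood at -0.53 (adjusted p = 0.465), and Rnaseh2b 0.39 higher (adjusted p = 0.472). In the arm that runs through eIF2α, 0 of 12 genes were called by limma and the median was -0.03, with Ppp1r15b, a phosphatase subunit that reverses the phosphorylation, at -0.41 (adjusted p = 0.328), Eif2ak1 at -0.37 (adjusted p = 0.562) and Ddit3 at 0.41 (adjusted p = 0.563).

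Of 8 genes of the interferon signal, Ifnb1, which encodes interferon β, was called. No AAV-GFP or untreated array showed it well above background, so it entered the test only through the AAV-hGRβ arrays. Its AAV-hGRβ signal was at least 5.11-fold that of AAV-GFP. The adjusted p from limma, 0.000660, belongs to the log2 difference of 4.27 and not to this bound. That difference uses AAV-GFP signals that were not well above background. Irf9 and Stat2, partners in the factor that carries the interferon signal to the nucleus, did not pass: Irf9 stood 0.47 higher (adjusted p = 0.292) and Stat2 0.48 higher (adjusted p = 0.420). For AAV-GFP against untreated, 0 genes of any of the 5 lists were called by limma.

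**Figure D4:**
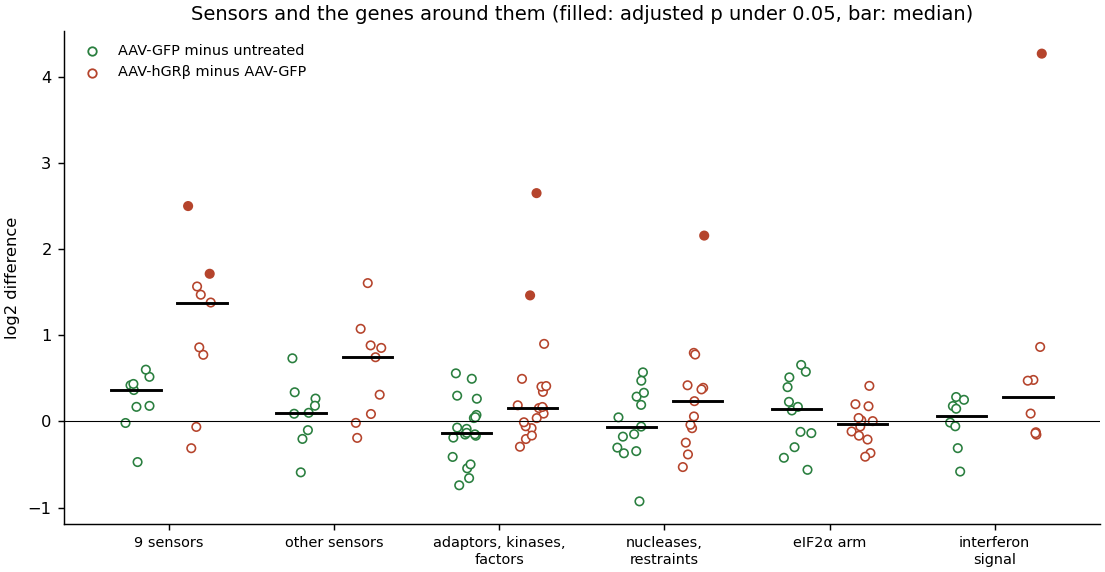
Log2 differences (vertical axis) of the tested genes of the sensors and of 5 pathway lists; each point is a gene, bars are medians and filled points have an adjusted p under 0.05. Filled points are found only in AAV-hGRβ minus AAV-GFP: Zbp1, Dhx58, Irf7, Mlkl, Usp18 and Ifnb1, the last of which is a lower bound in the text because its AAV-GFP arrays were not well above background.

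Markers of several immune cell types were higher on the same arrays as the sensors. All 10 T and NK cell markers stood higher in AAV-hGRβ than in AAV-GFP, though Cd8b1 and Cd3e by only 0.01 and 0.02. Nkg7, Gzma and Cd8a were called. No AAV-GFP or untreated array showed Cd8a well above background, so it entered the test only through the AAV-hGRβ arrays. Its AAV-hGRβ signal was at least 12.6-fold that of AAV-GFP and at least 11.6-fold that of untreated. The summed signal of the list was 2.42 to 2.48 in AAV-GFP, 2.29 to 2.60 in untreated and 4.65 to 10.1 in AAV-hGRβ. All 10 Kupffer cell and macrophage markers stood higher in AAV-hGRβ than in AAV-GFP as well, 0 of them called by limma. Their sums were 80.2 to 105 in untreated, 82.5 to 156 in AAV-GFP and 192 to 280 in AAV-hGRβ. Marco had no value on an AAV-GFP array, so the sum of that array lacks it. The 4 monocyte and neutrophil markers tested summed to 3.33 to 9.61 in AAV-GFP and 8.57 to 17.9 in AAV-hGRβ, and the 4 B cell markers to 0.89 to 2.00 and 2.32 to 2.57, with 0 called in either list. The 5 tested plasmacytoid dendritic cell markers summed to 0.51 to 8.59 in AAV-GFP, where AAV-GFP replicate 1 was the high array, and to 0.60 to 0.76 in AAV-hGRβ. The high sum rests on Cox6a2 alone, whose log2 SD was 3.82 in AAV-GFP, 0.40 in untreated and 0.04 in AAV-hGRβ. All 5 conventional dendritic cell markers stood higher, and all 8 hepatocyte and all 7 endothelial markers stood lower, with medians of 0.86, -0.28 and -0.23 and 0 called. Against untreated, the comparison in which Ifih1, Ifi204 and Tlr7 were called, 2 Kupffer cell markers (Cd5l, by 1.26, and Clec4f, by 1.17), the monocyte marker Ccr2 (1.78) and the B cell marker Cd22 (1.39) rose too, beside Nkg7, Gzma and Cd8a. Of the 10 T and NK cell markers, 8 stood higher than in untreated, and Cd8b1 and Cd3e stood lower, at -0.30 and -0.16. The part of all these cell types in the sensor differences was not tested.

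**Figure D5:**
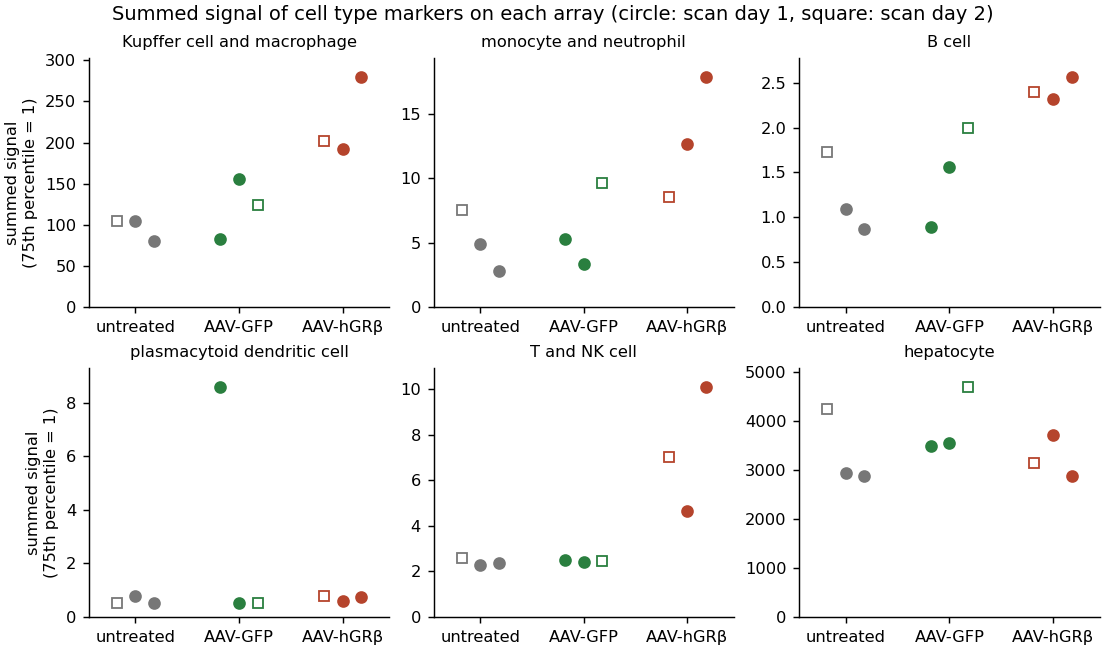
Summed linear signal of cell type markers (vertical axis, in multiples of the array's 75th percentile) on each array by group; circles are scan day 1 and squares scan day 2. The AAV-hGRβ sums lie above all others for Kupffer cell, T and NK cell and B cell markers. The Kupffer cell sum of an AAV-GFP array lacks Marco, which had no value there. The high plasmacytoid dendritic cell sum is AAV-GFP replicate 1 and rests on Cox6a2 alone.

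Likeness to the sensors over the 9 arrays was read among 14292 genes well above background on all of them, as a description only, since the 3 groups themselves set much of each correlation. Nearest to Zbp1 was Usp18 (Pearson r = 0.987), followed by Fbxo39 and Oas1c. Nearest to Dhx58 were Gbp6 (r = 0.985), Usp18 and Ly6a. Nearest to Ddx58 was a probe with only an array identifier (r = 0.990), followed by Med20 and Ube2c. For Ifih1 they were Ifi205 (r = 0.992), 4930599N23Rik and Nqo1, and for Ifi204 they were Fcgr1 (r = 0.988), Epsti1 and Ifi207. For Eif2ak2 they were Cmtr1 (r = 0.956), Slc48a1 and Abhd4. Nearest to Tlr7 was again a probe with only an array identifier (r = 0.993), followed by Bank1 and Ckb. For Tlr9 they were Intu (r = 0.989), Slc4a9 and Ccin, and for Tlr3 they were Bcat2 (r = 0.941), Des and C1qtnf6.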

How the data were processed

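Per the file headers, each deposited array file holds Cy3 spot intensity on a linear scale, background-corrected within the array, and flags per spot; the submitters' processing notes name Agilent Feature Extraction 9.5. The deposited series table holds the same intensity values (largest difference 0) and was not used further. Control spots and outlier spots were left out, and spots of a probe were averaged. Values are log2 intensity minus the array's 75th percentile. Of 41174 probes, 24273 were kept. Symbols come from the files, updated through RefSeq names of GRCm38.p6. The comparisons used limma 3.58.1 (lmFit, then eBayes; R 4.3.3), two-sided, on all 9 arrays with 6 residual degrees of freedom, and the fit was tested on simulated data. "At least N-fold" sets the brighter group's mean against, per array, the dim probe's signal or, where higher, the array's lowest signal well above background. The arrays' number limits the precision.

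The members and the 13 gene lists (129 entries, 122 on the array and 114 tested) were chosen with earlier results of these data known. The text names all 9 members, the genes of each pathway list past the threshold in AAV-hGRβ against AAV-GFP or AAV-GFP against untreated plus up to 3 others with the smallest p, the markers past the threshold, and the 3 genes most like a member; 1 gene that this rule takes is not reported here. Replicate numbers did not pair the samples. Alternatives covered scaling, background, filter, scan day, slide, replicate number and each array left out.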

Additional observations from a re-analysis of the deposited data

How the results depend on the processing

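The difference of Zbp1 between AAV-hGRβ and AAV-GFP stayed positive under all 21 alternatives, from 2.14 to 2.76, and kept its call in 17 of the 19 with a test; that of Dhx58 ranged from 1.35 to 1.97 and kept its call in 12. Of the 9 sensors, 2 were called in AAV-hGRβ against AAV-GFP, which became 1 with arrays scaled on the median, 0 with normexp, 1 with no filter on dim probes, 4 with only genes well above background on all arrays, and 1 to 2 with an array left out. Ifih1 (adjusted p = 0.0457) and Ifi204 (adjusted p = 0.0424) were the sensors gained with only the brighter genes, where fewer genes are tested. Normexp with bright local backgrounds replaced by the array's median, an alternative chosen after seeing the data, gave 4. All genes called numbered 154, and 18 with normexp, 30 with no filter, 260 with scan day as a block, 75 with slide as a random block, and 41 (without AAV-GFP replicate 1) to 162 with an array left out; it was 96, 46 and 49 without untreated replicate 4, AAV-hGRβ replicate 1 or AAV-hGRβ replicate 3. Scaling on the median moved the median of all genes to -0.33. For AAV-GFP against untreated, 0 genes were called, with 4 on the median, 1 with quantile normalization, 1 with scan day as a block, and 0 to 1 with an array left out. For AAV-hGRβ against untreated, 5 sensors were called, with 3 under normexp, 2 with no filter, 2 with slide as a random block, and 2 to 5 with an array left out; genes called numbered 567, with 49, 85, 58, and 94 (without AAV-hGRβ replicate 3) to 2150 (without untreated replicate 2) in the same order, and 1256 with scan day as a block; it was 109, 98, 248, 323 and 288 without untreated replicate 3, untreated replicate 4, AAV-GFP replicate 2, AAV-hGRβ replicate 1 and AAV-hGRβ replicate 2.

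With the replicate block, 0 sensors and 2 genes were called for AAV-hGRβ against AAV-GFP (adjusted p = 0.0680 for Zbp1 and 0.113 for Dhx58), and 0 sensors and 1 gene against untreated; the numbers are shared labels and did not pair the samples (correlations of AAV-GFP with AAV-hGRβ deviations of 0.0118, 0.242 and 0.0065).

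Signs turned only for differences that did not pass. Tlr3, AAV-hGRβ against AAV-GFP, was 0.14 with slide as a random block, 0.50 on scan day 2 alone and -0.31 to 0.21 with an array left out; against untreated it was -0.048 on the median, -0.017 with quantile normalization, -0.52 with normexp and -0.014 with the replicate block. Tlr3 in AAV-GFP against untreated was -0.076 on scan day 2 alone. Tlr9 was 0.38 with normexp against AAV-GFP, and against untreated -0.22 on the median, -0.14 on scan day 2 alone and -0.058 to 0.22 with an array left out. Eif2ak2 against untreated was -0.068 with normexp. For AAV-GFP against untreated, Zbp1 ran from -0.071 to 0.38 and Ddx58 from -0.12 to 0.067 with an array left out, and Ddx58 was 0.029 on scan day 1 alone. The causes of these shifts were not tested. Signal near background limits the precision of the dim Tlr3 probes.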
